A study of Mus musculus with 4 samples.

Results

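Krt7, Krt8, Krt18 and Krt19 encode the keratins of simple epithelium, the single-layered lining of ducts and glands, and serve as markers of luminal cells in the mammary gland. The 4 genes were chosen by symbol from the 54446 genes of an RNA sequencing table of mouse mammary cells. This was done before any filter on their values, but with earlier results of these data known. All 4 passed the filter used here, an FPKM (fragments counted on a gene, divided by its exon length in kilobases and by library depth) above 0 in every library. Mammary gland cells of wild type C57BL/6 mice had been sorted by flow cytometry into basal cells, the outer contractile layer, or luminal cells, the inner layer that faces the duct. The sorted cells were grown as 3D cultures in Matrigel, a basement membrane gel, with DMSO as the vehicle control or with 100 μM baicalin, a flavonoid from Scutellaria roots, in the medium. There was 1 library for each of the 4 conditions (basal with DMSO, basal with baicalin, luminal with DMSO, luminal with baicalin), so no test between conditions could be made, and neither the number of animals behind a library nor the time of harvest was given in the sources used here. The comparisons asked whether these transcripts differed with baicalin in each kind of culture, and how the cultures differed under each treatment.

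Keratins build intermediate filaments from pairs of an acidic type I chain and a basic type II chain, and a chain without its partner is degraded. Krt8 is the type II and Krt18 the type I chain of the main pair of simple epithelium. Krt7 is a further type II chain of ducts and glands, and Krt19 is a type I chain that lacks most of the tail domain. In the mammary gland these 4 chains are known for the luminal layer, while Krt5 with Krt14 form the pair of the basal layer, and Krt6a, Krt6b, Krt16 and Krt17 are known for stressed or proliferating stratified epithelium.

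Krt8 (ENSMUSG00000049382, GRCm38 chr15:101996698-102004482, minus strand) and Krt18 (ENSMUSG00000023043, chr15:102028180-102032027, plus strand) are divergent neighbours whose start sites lie 23.7 kb apart at the end of the type II keratin cluster, so Krt18 is a type I gene outside the type I cluster. Krt7 (ENSMUSG00000023039, chr15:101411043-101430313, plus strand) lies in the same cluster, 566 kb from Krt8. Krt19 (ENSMUSG00000020911, chr11:100140810-100148665, minus strand) lies in the type I cluster, 4.88 kb from Krt15 and 54.5 kb from Krt14. Krt7, Krt8 and Krt18 were all lower in the libraries labelled luminal than in those labelled basal, and Krt8 and Krt18 are divergent. For these reasons the 250 bases before their RefSeq starts (GRCm38.p6) are shown. They are read 5′ to 3′ on the strand of the gene, and capitals mark matches to the motifs searched on both strands. RefSeq sequence was matched for 3 of the 4 members, without Krt19.
Krt7, chr15:101412153-101412402, plus strand: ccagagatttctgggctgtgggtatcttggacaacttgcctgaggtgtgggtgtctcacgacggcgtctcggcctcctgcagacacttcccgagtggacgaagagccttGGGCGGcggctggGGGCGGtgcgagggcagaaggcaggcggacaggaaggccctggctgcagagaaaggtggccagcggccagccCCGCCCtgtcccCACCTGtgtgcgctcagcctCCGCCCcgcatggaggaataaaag
Krt8, chr15:102004343-102004592, minus strand: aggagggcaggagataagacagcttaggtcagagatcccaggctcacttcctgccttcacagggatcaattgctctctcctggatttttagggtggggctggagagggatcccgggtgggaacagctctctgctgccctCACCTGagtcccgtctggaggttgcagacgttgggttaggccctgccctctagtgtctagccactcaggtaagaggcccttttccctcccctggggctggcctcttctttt
Krt18, chr15:102027966-102028215, plus strand: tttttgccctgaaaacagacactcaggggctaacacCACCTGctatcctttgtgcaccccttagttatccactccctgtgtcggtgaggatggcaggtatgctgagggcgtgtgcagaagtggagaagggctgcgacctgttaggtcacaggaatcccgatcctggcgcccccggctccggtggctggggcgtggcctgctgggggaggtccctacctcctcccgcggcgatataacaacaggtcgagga
The E-box CACCTG, a letter string bound by repressors such as Snail and Zeb factors, was found once in each of the 3 windows, at 44 to 39 bases before the start in Krt7, 111 to 106 in Krt8 and 214 to 209 in Krt18. Of the 32851 RefSeq windows of this length, 17.2% hold it. The GC box GGGCGG, which 32.7% of windows hold, was found 4 times in Krt7, 2 of them on the opposite strand, and had no match in the windows of Krt8 and Krt18. The letters TATAAA (in 12.4% of windows), the AP-1 motif TGANTCA (6.75%) and the antioxidant response element core TGACNNNGC (10.2%) had no match in the 3 windows, and no motif matches overlapped. A match is a string of letters and not a measured binding site, and the Krt7 window lies wholly, and those of Krt8 and Krt18 partly, inside the GENCODE gene models, which start further upstream.

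The depth of the libraries, read from the steps of the FPKM values, was 19356107 to 20648787 fragments. Fragments summed over genes came to slightly more in each library, at 19818946 to 21229230. The value of a single fragment per kb of exon ranged from 0.0484 to 0.0517 FPKM. Each member value rested on 957 to 61158 fragments. The cell labels were checked against markers. Of 13 basal cell markers, 12 had their higher value under the luminal label with DMSO and 12 with baicalin, and their summed level was 477 FPKM in the basal DMSO library, 305 in basal baicalin, 1355 in luminal DMSO and 1267 in luminal baicalin. Acta2, smooth muscle actin, had 7.66, 3.49, 555 and 417 FPKM in that order. The exception in both was Itgb1, the gene of the sorting antigen CD29, with 348, 243, 207 and 232 FPKM. Of 9 hormone-sensing luminal markers, 6 were higher under the luminal label with DMSO and 5 with baicalin. Of all genes tested, 52.5% were higher there with DMSO and 45.2% with baicalin. Luminal epithelial markers were lower under the luminal label in 10 of 10 with DMSO and 8 of 10 with baicalin, beside 47.5% and 54.8% of all genes. Of 7 luminal progenitor and alveolar markers tested, 6 were lower there under each treatment. Most markers of the basal, luminal epithelial and luminal progenitor lists thus ran against the labels. A small majority of hormone-sensing markers ran with the labels. Libraries are named below by their label only. In bulk RNA, fewer cells of a type and less RNA per cell cannot be told apart.

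Krt8 had 1573 FPKM in the basal DMSO library, 754 in basal baicalin, 383 in luminal DMSO and 324 in luminal baicalin. It was the most abundant member in 3 of the 4 libraries, and 6 genes in the table had a higher FPKM in the basal DMSO library. Krt18, its partner, had 1408, 948, 298 and 197 FPKM in the same order. Krt18 exceeded Krt8 in the basal baicalin library and was below it in the other 3. Krt19 had 116, 79.9998, 105 and 25.0 FPKM. Its luminal baicalin library stood low, and both DMSO libraries were close to each other. Krt7 had 115, 68.2, 11.4 and 7.19 FPKM, so both libraries labelled luminal were far below both labelled basal. For each of Krt7, Krt8 and Krt18, every library labelled basal was higher than every library labelled luminal, whereas for Krt19 the luminal DMSO library lay between the basal ones. The number of genes with a higher FPKM went from 306 in basal DMSO to 6443 in luminal baicalin for Krt7, out of 20939 and 22099 genes above 0.

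**Figure D1:**
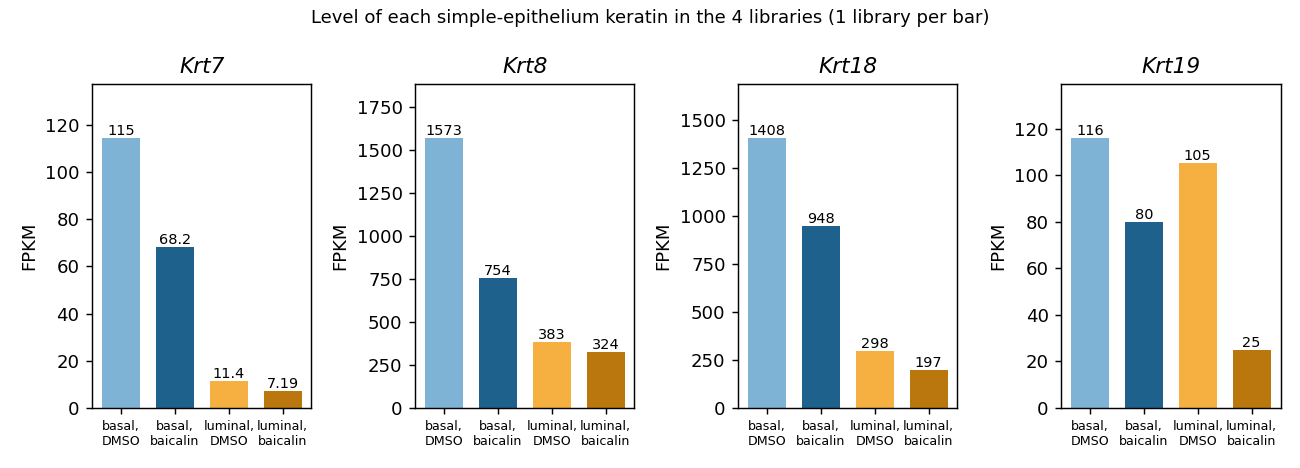
FPKM (y axis, linear from 0, a scale of its own in each panel) of Krt7, Krt8, Krt18 and Krt19 in the 4 libraries, 1 library per bar and so without error bars. Within each label the baicalin bar is lower than the DMSO bar for all 4 genes, and Krt7, Krt8 and Krt18 are higher in both libraries labelled basal.

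The members did not hold the same proportions in each library. The 4 genes summed to 3212 FPKM in basal DMSO, 1851 in basal baicalin, 797 in luminal DMSO and 554 in luminal baicalin. Krt8 and Krt18 made up most of each sum, with Krt8 at 49.0%, 40.8%, 48.0% and 58.5% and Krt18 at 43.8%, 51.2%, 37.3% and 35.7%. Krt19 gave 3.62%, 4.32%, 13.2% and 4.51%, its largest share being in the luminal DMSO library. Krt7 gave 3.57% and 3.68% in the libraries labelled basal and 1.43% and 1.30% in those labelled luminal.

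Since FPKM is per length, levels of paired chains can be set beside each other. The ratio of Krt8 to Krt18 was 1.12 in the basal DMSO library (95% exact Clopper-Pearson interval 1.10 to 1.13), 0.795 in basal baicalin (0.782 to 0.809), 1.29 in luminal DMSO (1.25 to 1.32) and 1.64 in luminal baicalin (1.59 to 1.69). It was thus lower with baicalin under the basal label and higher under the luminal label, and no 2 of the 4 intervals overlapped. These intervals, like all others given here, cover counting error only and not the spread between cultures. The ratio of Krt7 to Krt19 was 0.987 (0.954 to 1.02), 0.852 (0.818 to 0.888), 0.108 (0.102 to 0.115) and 0.288 (0.263 to 0.315) in the same order. In the basal DMSO library these levels did not differ beyond counting error, and in the other 3 libraries Krt19 was the higher. That ratio depends on the length taken for Krt7, whose exons cover 7049 bases while its main transcript has 4094, and with transcript lengths it was 1.44, 1.25, 0.159 and 0.421, so that Krt7 was then the higher gene in both libraries labelled basal. Type II over type I levels, summed over the 4 members, came to 1.11, 0.7998, 0.979 and 1.49.

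**Figure D2:**
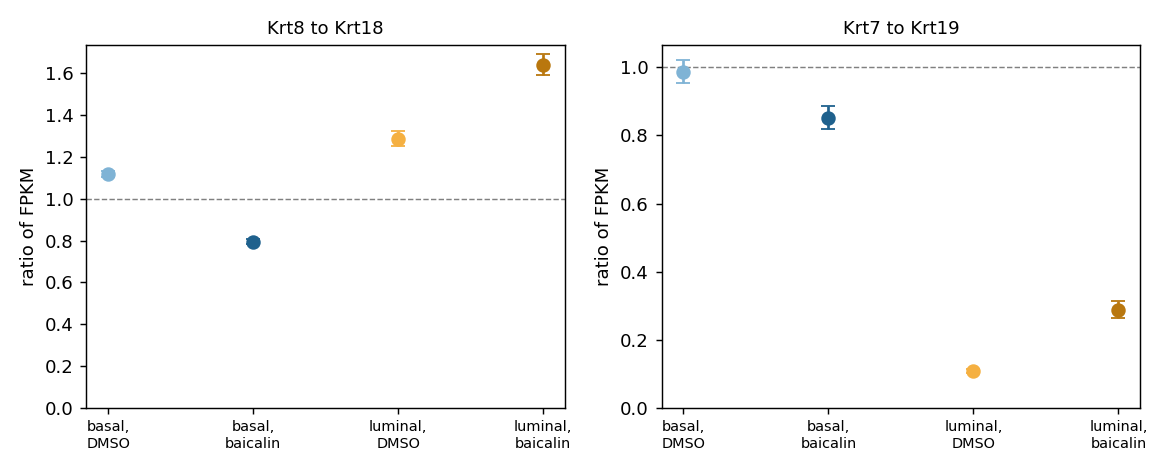
Ratio of FPKM (y axis, linear from 0) of Krt8 to Krt18 (left) and of Krt7 to Krt19 (right) in each library, with bars for the 95% Clopper-Pearson interval of counting error and a dashed line at equal levels. The left ratio runs from 0.795 in basal baicalin to 1.64 in luminal baicalin, and the right ratio is below 0.3 in both libraries labelled luminal.

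In the libraries labelled basal, all 4 members were lower with baicalin than with DMSO. Changes are log2((FPKM + 1)/(FPKM + 1)), and a gene counts as past the threshold when the change is over 1 or under -1. Krt8 fell by 1.06 on this scale, a baicalin to DMSO ratio of 0.479 (0.473 to 0.486). The other members stayed short of the threshold, with a change of -0.74 for Krt7 (ratio 0.595, 0.580 to 0.610), -0.57 for Krt18 (0.673, 0.663 to 0.684) and -0.53 for Krt19 (0.689, 0.657 to 0.722). So 1 of the 4 members was past the threshold downwards, where 3.33% of the 17787 genes tested were (2.15% were past it upwards), and all 4 were lower, where 49.1% of the genes tested were. None of the 4 intervals reached 1.

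In the libraries labelled luminal, all 4 members were again lower with baicalin. Krt19 fell by 2.03 on the log2 scale, which was 4.21-fold (3.92 to 4.52), and 43 of the 17787 genes had a lower change. Krt7 changed by -0.60 (ratio 0.631, 0.583 to 0.683), Krt18 by -0.59 (0.664, 0.642 to 0.686) and Krt8 by -0.24 (0.846, 0.826 to 0.866). The member past the threshold was thus Krt19 and not Krt8, again 1 of 4, with 1.59% of the genes tested past it downwards, 2.37% upwards and 54.4% lower at all. The basal and luminal comparisons share no library.

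Set side by side, the baicalin changes under the luminal label minus those under the basal label were -0.02 for Krt18, 0.14 for Krt7, 0.82 for Krt8 and -1.50 for Krt19. The 2 ratios of Krt18 overlapped in their counting intervals and so did those of Krt7, while those of Krt8 and of Krt19 lay apart. With 1 library per condition these differences were not tested.

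**Figure D3:**
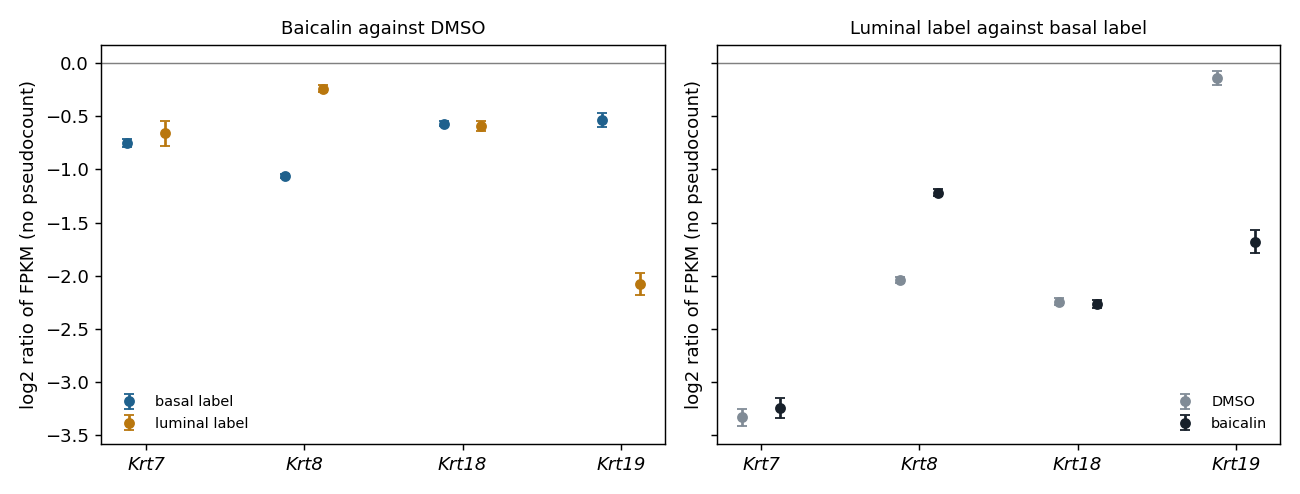
Log2 ratio of FPKM without a pseudocount (y axis) for each member, baicalin against DMSO under each label (left) and luminal label against basal label under each treatment (right), with bars for the 95% Clopper-Pearson interval of counting error. All 16 points lie below 0, Krt8 and Krt19 differ most between labels on the left, and on the right Krt19 under DMSO lies nearest to 0.

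Under DMSO, 3 of the 4 members were past the threshold downwards in the luminal library against the basal one. Krt7 fell by 3.22 on the log2 scale, 10.1-fold (9.55 to 10.6), with 16 genes of those tested lower still. Krt18 changed by -2.24, which was 4.73-fold lower (4.62 to 4.85), and Krt8 by -2.04, which was 4.11-fold lower (4.03 to 4.18). Krt19 differed by -0.14 (ratio 0.905, 0.866 to 0.946), which was small but beyond counting error. Of all genes tested, 3.86% were past the threshold in this direction and 4.71% in the other.

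Under baicalin, 4 of the 4 members were past the threshold in the same direction, where 2.99% of the genes tested were, with 5.24% past it the other way. Krt7 changed by -3.08, which was 9.48-fold lower in the library labelled luminal (8.89 to 10.1), and 5 genes had a lower change. Krt18 changed by -2.26, or 4.80-fold (4.67 to 4.94), and Krt19 by -1.64, or 3.202-fold (2.98 to 3.45). Krt8 changed by -1.22, or 2.33-fold (2.28 to 2.38). Each label comparison shares its libraries with the baicalin comparisons, so these values are not independent of them.

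The other chains of the family were set beside the members. The table lists 55 keratin genes, pseudogene row included, of which 43 were above 0 in a library and 15 reached 5 FPKM in a library, the 4 members and 11 others. With baicalin under the basal label, 9 of these 11 were lower, 7 of them past the threshold, so most had the direction of the members there. Under the luminal label 9 were higher, 6 of them past the threshold, where all 4 members were lower, and the 2 lower ones were Krt15 and Krt23. Krt5 had 128, 3.01, 2015 and 2415 FPKM (basal DMSO, basal baicalin, luminal DMSO, luminal baicalin), and its partner Krt14 had 1494, 417, 2308 and 3132. Both were lowest in the basal baicalin library and highest in luminal baicalin, the library in which all 4 members had their lowest values. Krt6a had 67.3, 3.14, 107 and 539 FPKM, Krt16 19.5, 1.83, 37.9 and 200, and Krt17 122, 53.1, 358 and 1140. Krt6a and Krt6b are close paralogues, so fragments may be split between them. Under baicalin, all 11 were higher in the library labelled luminal, 10 of them past the threshold.

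The members held very different parts of the keratin mRNA, with 63.4% of the summed keratin FPKM in basal DMSO, 79.0% in basal baicalin, 14.0% in luminal DMSO and 6.85% in luminal baicalin. The sum of Krt5 and Krt14 against that of Krt8 and Krt18 was 0.544, 0.247, 6.35 and 10.6 in the same order. Within the basal label the balance thus stood further towards the simple-epithelium pair with baicalin, although that pair was itself lower, at 2982 and 1702 FPKM, while Krt5 and Krt14 together had 1622 and 420 FPKM. Within the luminal label it stood further towards the basal pair, with Krt5 and Krt14 at 4322 and 5547 FPKM and Krt8 and Krt18 at 681 and 521.

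**Figure D4:**
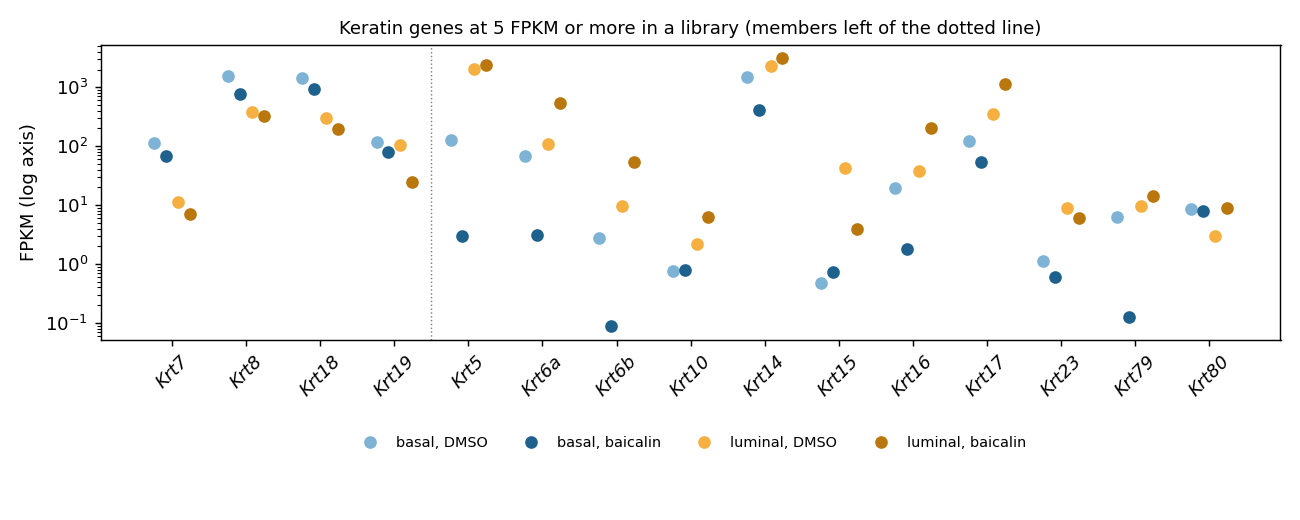
FPKM (y axis, log axis) of the 15 keratin genes that reached 5 FPKM in a library, 1 point per library, with the 4 members left of the dotted line. The members descend from the libraries labelled basal to luminal baicalin, apart from Krt19 in luminal DMSO, whereas Krt5, Krt6a, Krt6b, Krt14, Krt16 and Krt17 are lowest in basal baicalin and highest in luminal baicalin.

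Neighbours on the chromosome were also read. Krt15, next to Krt19, had 0.485, 0.725, 42.6 and 4.00 FPKM, so it was lower in luminal baicalin than in luminal DMSO, as Krt19 was, but near 0 in both libraries labelled basal, where Krt19 was not. Eif4b, a translation initiation factor 41.7 kb beyond Krt18, had 167, 203, 192 and 198 FPKM, and its change was 0.27 with baicalin under the basal label and 0.20 between labels under DMSO. On the other side of Krt8, Krt78 had at most 2.21 FPKM and Krt79, a keratin of hair follicle and sebaceous ducts, had 6.28, 0.125, 9.50 and 14.1. Krt80, next to Krt7, had 8.45, 7.997, 3.00 and 8.87 FPKM. Between labels under DMSO it fell by 1.24 on the log2 scale, as Krt7 fell, and it rose by 1.30 with baicalin under the luminal label, where Krt7 was lower. On the other side of Krt7, Krt87 lies 0.725 kb away and had 0, 0.0216, 0.113 and 0.0425 FPKM on 0, 1, 5 and 2 fragments. Krt88, 17.4 kb away on that side, had 0.949, 0.547, 0.172 and 0 FPKM, the descending order of Krt7, on 17, 10, 3 and 0 fragments. Tns2, beyond Eif4b, had 4.84, 6.95, 5.70 and 3.32 FPKM and changed by -0.63 with baicalin under the luminal label.

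**Figure D5:**
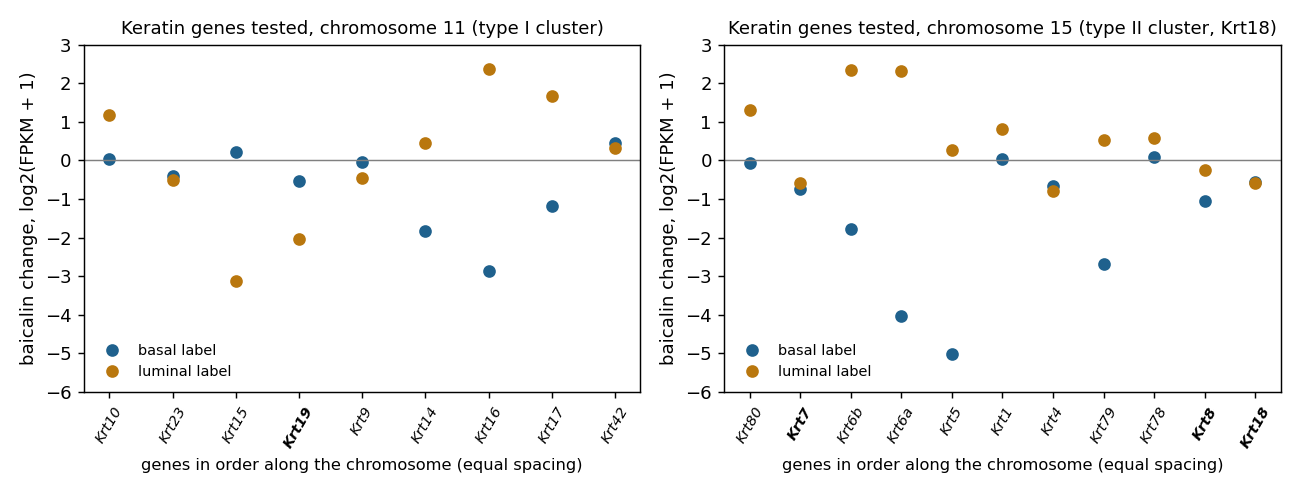
Baicalin change as log2 of (FPKM + 1) (y axis) for every keratin gene tested on chromosome 11 (left) and chromosome 15 (right), 1 point per label, in chromosome order with members in bold. The 4 members lie below 0 under both labels, whereas Krt5, Krt6a, Krt6b, Krt14, Krt16, Krt17 and Krt79 lie below 0 under the basal label and above it under the luminal label.

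Copies of the members had little RNA. Krt8-ps, a processed pseudogene on chr7:23357125-23358069 that matches the Krt8 transcript at 98.6% over 941 bases, had 3.30, 1.93, 1.09 and 0.666 FPKM, which followed the order of Krt8 and may hold fragments of it. The pseudogenes Gm5200, Gm17847 and Gm7943, which match Krt18 at 90.2%, 86.4% and 83.1%, were listed at 0 in all 4 libraries. Among members, the Krt7 and Krt8 transcripts aligned at 74.6% identity over 1022 bases. Gm671, on the strand opposite Krt7, had at most 0.454 FPKM, and Gm36026, opposite Krt8, at most 0.389. The strand setting of the counting was not stated, so fragments of such overlapping genes cannot be assigned with certainty.

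Other luminal markers shared the label difference in part. Of 10 luminal epithelial markers tested, 10 were lower in the library labelled luminal under DMSO, 7 of them past the threshold, with a median change of -1.50 beside 0.0099 for all genes, and 8 were lower under baicalin, 4 past the threshold, with a median of -0.70 beside -0.027. Epcam, an epithelial adhesion molecule, had 637, 414, 342 and 295 FPKM, and Cldn4, a tight junction claudin, had 273, 476, 45.9 and 136. Epcam thus had the order of Krt8, while Cldn4 was higher with baicalin under both labels. With baicalin, 6 of the 10 were lower under the basal label, 3 past the threshold and 1 past it upwards, and 5 under the luminal label, 1 past the threshold each way. Muc1, an apical mucin, had 7.94, 0.673, 2.18 and 1.45 FPKM and was past the threshold downwards under the basal label.

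Markers of luminal subtypes divided between the members' patterns. Of 7 luminal progenitor and alveolar markers tested, 6 were lower with baicalin under the basal label (3 past the threshold, median -0.82), beside 49.1% of all genes. Under the luminal label 5 were lower (2 past it and 1 past it upwards, median -0.45), beside 54.4% of all genes. In the library labelled luminal 6 were lower under each treatment, beside 47.5% of all genes with DMSO and 54.8% with baicalin. Kit, a receptor of luminal progenitors, had 6.83, 2.72, 6.59 and 0.957 FPKM, the same order over the libraries as Krt19. Aldh1a3, an aldehyde dehydrogenase of luminal progenitors and the 1 marker past the threshold upwards, had 173, 97.8, 46.4 and 163 FPKM. Elf5, an alveolar transcription factor, had 14.9, 5.63, 6.51 and 3.18, and Lcn2, a secreted lipocalin, had 212, 297, 78.7 and 57.3. Of 9 hormone-sensing markers, 6 were higher in the library labelled luminal under DMSO, 4 of them past the threshold, with a median of 0.45, and 3 were lower, 2 of them, Aqp5 and Prlr, past it. With baicalin under the luminal label 7 of the 9 were lower, 4 past the threshold and 1 past it upwards, with a median of -0.91. Of all genes, 54.4% were lower in that comparison. Foxa1, a pioneer factor of oestrogen receptor cells, had 1.80, 1.35, 9.30 and 1.09 FPKM, and Cited1 had 0.0574, 0.169, 7.36 and 0.580, both past the threshold downwards with baicalin under the luminal label. Esr1, the oestrogen receptor, stayed between 0.723 and 1.44 FPKM, and Pgr, the progesterone receptor, between 0.912 and 4.81. Aqp5, a water channel, had 46.0, 29.5, 18.5 and 4.10 FPKM, the descending order of Krt7, Krt8 and Krt18.

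Basal markers moved with the label as stated above, and with baicalin 12 of 13 were lower under the basal label, 3 of them past the threshold, with a median of -0.42 beside 0.0087 for all genes. Trp63, the p63 factor of the basal layer, had 6.01, 0.306, 25.2 and 27.0 FPKM, and Col17a1, a hemidesmosome collagen, had 23.2, 1.42, 193 and 272. Under the luminal label 7 of the 13 were lower with baicalin, 3 past the threshold and 1 past it upwards, with a median of -0.04. Markers of other cells were summed in the same way. The 7 fibroblast markers summed to between 2.84 and 10.5 FPKM and the 5 endothelial ones to between 0.874 and 3.31. The immune list summed to 8.94, 52.3, 5.11 and 15.2 FPKM, of which Cd68, a lysosomal protein also made outside macrophages, gave 7.49, 51.5, 4.44 and 13.7, while Ptprc, the common leukocyte antigen, had at most 0.0138 FPKM and was listed at 0 in basal baicalin. The adipocyte list summed to 0.163, 0.884, 15.6 and 5.29 FPKM, of which Fabp4 gave 0.0898, 0.725, 9.81 and 4.21 and Adipoq, the defining adipokine, 0.0729, 0, 4.15 and 0.561. These sums were small beside Krt8 and Krt18 in every library, but in both libraries labelled luminal some were as large as Krt7, at 11.4 and 7.19 FPKM. The part of cell composition in the member values was not tested.

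Keratin filaments are anchored at desmosomes, and the linker genes differed from the members in part. Of 16 linker and desmosome genes, 13 were lower with baicalin under the basal label (2 past the threshold, median -0.33), beside 49.1% and 3.33% of all genes. Under the luminal label 12 were higher (1 past the threshold, median 0.47), beside 45.6% and 2.37% of all genes. In luminal baicalin against basal baicalin 14 were higher, 8 of them past the threshold, beside 45.2% and 5.24% of all genes. The other 2, Pkp2 and Dsg2, were lower, Pkp2 past the threshold. Dsp, desmoplakin, which ties keratin to the desmosome, had 106, 69.3, 204 and 303 FPKM, and Dsg3, a desmosomal cadherin of stratified epithelium, had 23.1, 8.68, 70.8 and 173. Dsc3, its desmocollin counterpart, had 1.98, 0.183, 39.1 and 52.3. All 3 were highest in luminal baicalin, where the members were lowest. Of 16 regulators that bind or modify keratins, 9 were lower and 7 higher with baicalin under the basal label, beside 49.1% and 50.9% of all genes. Under the luminal label 11 were higher, beside 45.6% of all genes. Sfn, the epithelial 14-3-3 sigma, had 152, 75.5, 176 and 383 FPKM. Plk1, a mitotic kinase, had 25.1, 2.47, 16.1 and 9.12 FPKM.

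Profiles of the 8554 protein-coding genes tested that reached 5 FPKM in a library, members included, were ranked by distance to the mean of the members. Distances were taken on the log2(FPKM + 1) scale, centred for each gene over the 4 libraries. With the members left out, the nearest profile was that of Ddah1, at a distance of 0.405. Ddah1 had 7.50, 3.82, 0.921 and 0.547 FPKM, so its values under the luminal label lay below the pseudocount of 1 FPKM, which shrinks its differences. Without the pseudocount, Ddah1 was 8.14-fold lower in the library labelled luminal under DMSO and 6.99-fold lower under baicalin. It was followed by Myo5c, an unconventional myosin of glandular epithelium, at 0.427, Cldn7, a claudin, at 0.455, F2r at 0.551 and Podxl, an apical sialomucin, at 0.585. Cldn7 had 91.3, 78.4, 26.5 and 18.5 FPKM. The nearest to single members were Pcsk6 (0.240) and Cd200 (0.285) for Krt8, Myo5c (0.225) and Cd14 (0.295) for Krt18, Tnfrsf11b (0.665) and Cldn6 (0.726) for Krt7, and Kit (0.561) and Slc29a1, a nucleoside transporter (0.729), for Krt19. Among the members, Krt8 and Krt18 were nearest to each other, at 0.753, and Krt7 and Krt19 farthest apart, at 2.48, an order that changed with Pearson correlation, by which Krt7 and Krt18 were nearest and Krt8 and Krt19 farthest. These distances rest on 4 libraries and describe likeness over them only.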

How the data were processed

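mRNA of the 4 cultures was enriched with oligo (dT) beads and made into stranded libraries. According to the study's methods the authors aligned reads with HISAT2 to GRCm38 and counted fragments per gene with featureCounts, whereas the submitters' processing notes name Bowtie 0.12.2, mm8 and GRCm38. The authors deposited FPKM for 54446 genes, with no further scaling named. Exon lengths of GENCODE mouse release M21 (GRCm38) matched 54409 genes. The product of FPKM and exon length moved in whole fragments, from which the depth of each library was read. Of genes with up to 20 fragments, 98.7% to 99.0% came out whole within 0.1 fragments.

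Fragments were used for 95% Clopper-Pearson intervals of FPKM ratios, which cover counting error only, and no count test was made. Changes used a pseudocount of 1 FPKM, which understates those of low genes, on the 17787 genes above 0 in all 4 libraries, with a threshold of 1. With 1 library per condition no p-value is given.

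The members and the 14 gene lists, written from general knowledge, were chosen with earlier results of these data known. Genes were named by a rule: the members, in each list the 2 genes of largest change that reached 5 FPKM, 9 defining markers, keratins that reached 5 FPKM, copies, neighbours and the genes nearest in profile. Some genes stand in more than 1 list. Genes that the rule names in lists described by their sums may be left out of the text. Dsp, Dsg2, Pkp2, Aldh1a3, Itgb1, Prlr, Ptprc and Adipoq were chosen after their values were seen. Copies were found with blastn 2.17.0 at 95% identity over at least 200 bases, and the Krt18 pseudogenes at 80% over at least 500. Upstream sequence came from RefSeq. Simulated data held counting error only, and 200 well-counted genes were changed 8-fold, far past the threshold. They gave back 98.5% of these genes for the pair labelled basal and 99% for the pair labelled luminal. Of 54409 genes simulated, which include genes at 0, 29 and 30 unchanged ones were past the threshold. The simulation therefore checks the steps and cannot give error rates for smaller changes, low genes or spread between cultures. Alternatives were a pseudocount of 0.1 FPKM or none, TPM, centring on the median ratio, no filter, a filter of 1 FPKM in a library, a threshold of 2, sums with copies and, added after the data were seen, main transcript lengths. The work was done in Python 3.11.15 with scipy 1.17.1, pandas 2.3.3, matplotlib 3.10.9 and numpy 2.4.6.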

Additional observations from a re-analysis of the deposited data

Results flagged for a closer look

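Of the 39 named genes and members examined for opposite directions with baicalin under the 2 labels, each past counting error, 15 showed them, and none of Krt7, Krt8, Krt18 and Krt19 did. Most of the 39 had been named for a large change, and 10.6% of the 17781 genes tested with an exon length showed such directions, or 15.1% of those that reached 5 FPKM in a library. The difference was not tested, since each condition has 1 library, and each value is the log2 change under the luminal label minus that under the basal label. Of these, 7 were keratins, each lower under the basal label and higher under the luminal label. The values were 6.36 for Krt6a, 5.27 for Krt5, 5.23 for Krt16, 4.13 for Krt6b, 3.22 for Krt79, 2.86 for Krt17 and 2.28 for Krt14. The other genes with this direction were Col17a1 at 3.82, Dsg3 at 2.59, Trp63 at 2.52, Sfn at 2.12, Dsc3 at 1.74 and Nes, an intermediate filament gene of immature cells, at 0.71. Of the 15, 6 were past the threshold of 1 under both labels, namely Krt6a, Krt6b, Krt16, Krt17, Dsg3 and Sfn, while Nes and Lcn2 were within it under both. Fabp4 at -1.72 and Lcn2 at -0.93 had the opposite direction, higher under the basal label and lower under the luminal one.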

How the results depend on the processing

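No paired analysis was possible because each condition has 1 library. All 68 recomputed member changes kept their sign and their side of the threshold, and the largest shift was 0.18 on the log2 scale. With TPM, the changes under the basal label were -0.78 for Krt7, -1.09 for Krt8 and -0.60 for Krt18, the label differences under DMSO were -3.41 for Krt7, -2.15 for Krt8, -2.35 for Krt18 and -0.25 for Krt19, and those under baicalin were -3.26 for Krt7, -1.29 for Krt8 and -2.33 for Krt18. TPM shifted all genes by -0.034, 0.0044, -0.11 and -0.070 in the basal baicalin, luminal baicalin, DMSO label and baicalin label comparisons, before the pseudocount. For Krt7 between labels, a pseudocount of 0.1 FPKM gave -3.32 under DMSO and -3.23 under baicalin, and none gave -3.33 and -3.24. Genes past the threshold, higher and lower, numbered 383 and 592, 421 and 282, 837 and 686, and 932 and 531 in the order of comparisons above. They numbered 1123 and 1302, 1052 and 913, 2027 and 1467, and 2030 and 1327 with a pseudocount of 0.1 FPKM, 1693 and 2054, 1559 and 1537, 2872 and 1926, and 2632 and 2003 with none, 696 and 1002, 718 and 578, 1306 and 1279, and 1439 and 1083 with TPM, and 41 and 132, 60 and 46, 185 and 150, and 242 and 59 at a threshold of 2. Without a pseudocount, the median between labels under baicalin was 4.55 for basal cell markers and 1.03 for other intermediate filament genes. With the pseudocount of 1 FPKM these medians were 3.22 and 0.13, so the second depended strongly on this choice. With single transcript lengths, type II over type I was 1.15 in basal DMSO and 0.836 in basal baicalin, and Krt7 over Krt19 was 1.44, 1.25, 0.159 and 0.421. By Pearson correlation in place of distance, the nearest genes were others throughout, which are not named. With 1 library per condition, culture to culture spread is unknown, and the depth limits members by counting error only.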

Other observations

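Genes that build other intermediate filaments were also read. Of 10 tested, 10 were lower with baicalin under the basal label, 2 past the threshold, with a median of -0.25 beside 0.0087 for all genes, and 4 under the luminal label, 1 past the threshold. Vim, vimentin, had 16.2, 2.37, 69.2 and 40.0 FPKM in the basal DMSO, basal baicalin, luminal DMSO and luminal baicalin libraries. Nes, nestin, had 10.5, 8.63, 1.93 and 3.01, and was the higher in both libraries labelled basal, as Krt7, Krt8 and Krt18 were. Of 20 epithelial transcription factors, 9 were higher and 11 lower with baicalin under the basal label, 2 of them past the threshold downwards, and 10 were higher and 10 lower under the luminal label, 2 past it upwards and 1 downwards. Their medians were -0.07 and -0.03. Of all genes, 50.9% were higher with baicalin under the basal label and 45.6% under the luminal label. Among the other simple keratins, Krt23 had 1.13, 0.599, 9.05 and 6.00 FPKM, so it was lower with baicalin under both labels, like the members, but higher in the libraries labelled luminal.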
